A study of Saccharomyces cerevisiae with 9 samples.

Results

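The htb2 deletion strain and wild type were not set against each other on any of the arrays used here, so the effect of losing HTB2 was inferred through another strain, K123R, that was hybridised against each of them. For every gene, the dye-balanced mean log2 ratio of K123R over the htb2 deletion strain (3 arrays) was subtracted from the mean log2 ratio of K123R over wild type (2 arrays). If the K123R RNA were the same in both comparisons, this inferred difference would equal htb2 deletion over wild type, and a positive value would mean more RNA in the htb2 deletion strain. The difference could be formed and tested for 5694 of the 6256 genes on the arrays. A further 525 genes lacked a value in one of the dye orientations, and 37 others were too dim. In limma's test with Benjamini-Hochberg adjustment and a threshold of 0.05, 36 genes passed (0.632% of those tested), 25 of them higher (0.439%) and 11 lower (0.193%) in the inferred htb2 deletion. When either array against wild type was left out, 2 genes passed, HTB2 and LEU2, so every other call given below was lost.

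The series compared strains of the budding yeast Saccharomyces cerevisiae on 2-colour Agilent oligonucleotide arrays, each holding a mutant in one dye and a reference strain in the other. Wild type was BY4742. The htb2 deletion strain was BY13026, labelled htb2_delta0. The K123R strain was CY1272, which is labelled Htb1_K123R with htb2_delta0, so its H2B comes from an HTB1 gene whose lysine K123 is changed to arginine. Both strains on the 3 arrays against the htb2 deletion therefore lack HTB2. K123R carried Cy5 on array 1 against wild type and on array 2 against the htb2 deletion, and Cy3 on the other arrays. The series design describes the arrays as biological replicates, without saying whether the K123R cultures were the same in both comparisons. The title of array 1 against wild type names an htb1 deletion where its channel label names htb2_delta0. The strain code is CY1272 in both places.

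The 5 arrays lay on 4 slides. The median signal over all spots was 24.2 to 39.3 times the median background in the green channel (50.4 to 57.0 times in the red channel). Of gene spots, 99.3% to 99.9% were well above background. The scanner software marked 0.76% and 1.35% of gene spots as outliers on the arrays against wild type but 18.8% to 19.0% on those against the htb2 deletion. The 2 comparisons used different array designs, slides and software versions, although all 6256 probes carry the same name in both designs. Design, scan and comparison cannot be told apart. The tested genes included 192 with a saturated spot on at least 1 array, and 0 of the 36 genes called.

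Histone H2B pairs with H2A in the nucleosome, around which DNA is wrapped. Budding yeast has a pair of H2B genes, HTB1 and HTB2, each transcribed divergently from a neighbouring H2A gene, HTA1 or HTA2. The histone genes are transcribed around S phase, and HTA1-HTB1 is the pair known to respond to the level of H2A and H2B. Lysine K123 of H2B is ubiquitylated by Rad6 and Bre1, a mark tied to transcription elongation and histone H3 methylation.

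HTB2 (YBL002W), the gene labelled as deleted, had the lowest inferred difference of all genes tested. Its log2 ratio was −3.68 and −3.87 on the arrays of K123R over wild type, where the K123R channel read 1107 and 853 and the wild-type channel 10879 and 14609 intensity units. On the arrays of K123R over the htb2 deletion the ratio was −0.97, −0.06 and −0.71, with signals of 128 to 273 in K123R and 182 to 395 in the htb2 deletion. The groups of arrays did not overlap, the K123R channel was itself brighter against wild type, and the inferred difference was −3.33 ± 0.14 (SE, limma adjusted p = 2.2e-05). HTB1 and HTB2 are near-identical paralogs, so a probe for one may also read RNA of the other, which was not tested.

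HTB1 and its neighbour HTA1 read higher in the inferred htb2 deletion without passing the test. The HTB1 ratio was 0.42 and −0.14 over wild type and −1.13, −0.41 and −1.27 over the htb2 deletion. Every wild-type array lay above every htb2 array, and the difference was 0.94 ± 0.18 (limma adjusted p = 0.065). HTB1 did pass when any 1 of the arrays against the htb2 deletion was left out (limma adjusted p = 0.00391, 0.00933 and 0.0202 without array 1, 2 and 3) and with a shared dye term (0.0406). The fits with an array left out are unlike the main fit. Without array 1 or 3, each dye orientation of the htb2 arrays held 1 array, so their spread did not enter the standard error. Without array 2, only Cy3 arrays were left there and the dye was not balanced. HTB1 passing in those fits is therefore not stronger evidence than the main fit gave. Without array 1 or 2 against wild type its difference was 0.66 and 1.23 and did not pass (adjusted p = 0.595 and 0.237). HTA1 read 0.37 and −0.54 over wild type against −1.02, −0.46 and −1.79, which overlap, and its difference was 0.85 ± 0.29 (limma adjusted p = 0.235). In the single dye orientations the HTB1 difference was 0.83 with K123R in Cy5 and 1.06 in Cy3, and that of HTA1 was 0.83 and 0.86. HTB1 had a saturated spot on 1 array and HTA1 on 2.

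Only 5 of the 10 histone genes could be tested, because the others lacked a value on the 1 array against the htb2 deletion with K123R in Cy5. HHF1, an H4 gene, differed by 0.56 ± 0.21 (limma adjusted p = 0.268), and HTZ1, which encodes the variant H2A.Z, by 0.07 ± 0.13 (0.824). For the untested genes, the difference with K123R in Cy3 was 1.08 for HTA2, 0.87 and 0.59 for the H3 genes HHT1 and HHT2, 0.64 for the H4 gene HHF2 and −0.34 for the linker histone gene HHO1. Of the genes beside HTB2 in the RefSeq order, HTA2 and UTP20 lie on one side and ECM15 and NTH2 on the other. UTP20, of small-subunit ribosome processing, differed by −0.08 ± 0.18, ECM15 by 0.55 ± 0.16 and the trehalase gene NTH2 by −0.10 ± 0.13, and none passed (limma adjusted p = 0.867, 0.19 and 0.723).

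**Figure D1:**
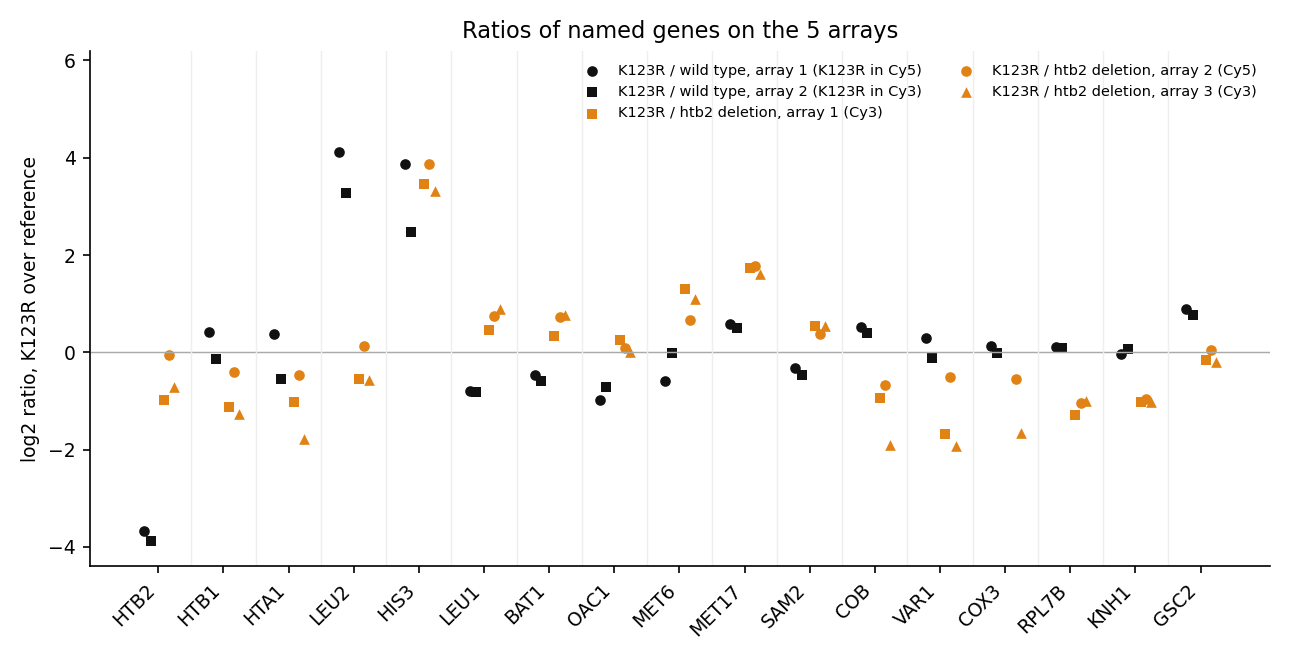
Log2 ratio of K123R over the reference strain on each of the 5 arrays for 17 genes; black marks are the 2 arrays against wild type, orange marks the 3 against the htb2 deletion, and circles mark K123R in Cy5. HTB2 is at −3.68 and −3.87 on the black arrays and between −0.97 and −0.06 on the orange ones. LEU2 is high only on the black arrays, at 4.12 and 3.27, and COX3 has no value on htb2 array 1.

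LEU2 (YCL018W), which encodes isopropylmalate dehydrogenase of leucine synthesis and is a selectable marker missing from BY4742, had the highest inferred difference. Its ratio was 4.12 and 3.27 over wild type and −0.54, 0.14 and −0.56 over the htb2 deletion. The groups were far apart, and the difference was 3.90 ± 0.23 (limma adjusted p = 1.5e-04). LEU2 read low in both references, at 197 and 404 intensity units in wild type and 279, 147 and 211 in the htb2 deletion. In the K123R channel it read 3163 and 3101 on the arrays against wild type and 124, 232 and 129 on those against the htb2 deletion. Both channels were thus low on the htb2 arrays, and the K123R channel was high only on those against wild type. Design and comparison cannot be told apart here, so whether the K123R RNA itself differed at LEU2 was not tested.

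Neither HIS3, URA3 and LYS2 nor the genes of the mating types passed the test. HIS3 was high in K123R in both comparisons, with ratios of 3.87 and 2.47 over wild type and 3.47, 3.87 and 3.32 over the htb2 deletion. These overlap, and the difference was −0.46 ± 0.34 (limma adjusted p = 0.526). URA3 differed by 0.06 ± 0.12 and LYS2 by −0.11 ± 0.14 (limma adjusted p = 0.852 and 0.718). Across all channels of the 5 arrays URA3 read only 150 to 337 intensity units and LYS2 114 to 186. At signals this low a difference would be hard to see. The 7 a-specific genes differed by 0.04 to 0.27 and the 3 tested alpha-specific genes by −0.02 to 0.44. Of these, 0 were called by limma, and 0 and 1 had an unadjusted p under 0.05, as 900 of all 5694 tested genes did (15.8%). Among the alpha genes, the pheromone gene MF(ALPHA)1 read 11708 to 44282 intensity units and the receptor gene STE3 6329 to 35790 across all channels of the 5 arrays. The a-pheromone gene MFA1 read 131 to 231 and the a-cell receptor gene STE2 148 to 267. SAG1 was not tested and differed by 0.42 with K123R in Cy3.

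Of 15 tested genes of leucine and branched-chain amino acid metabolism, 3 passed as lower (LEU1, BAT1 and OAC1) and LEU2 passed as higher. Over all tested genes, 0.193% passed as lower and 0.439% as higher. In 12 of the 15 the arrays against wild type all lay below those against the htb2 deletion, a pattern that 19.4% of all tested genes showed, and in LEU2 all above (18.8% of all tested genes). The median difference of the list was −0.55, beside 0.01 over all genes tested.

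LEU1, the isopropylmalate isomerase that acts one step before LEU2, had ratios of −0.79 and −0.82 over wild type and 0.46, 0.76 and 0.90 over the htb2 deletion. The sign itself turned between the references, and the difference was −1.52 ± 0.16 (limma adjusted p = 0.00811). BAT1, the mitochondrial branched-chain aminotransferase, read −0.46 and −0.59 against 0.33, 0.74 and 0.77, a difference of −1.17 ± 0.16 (adjusted p = 0.0203). OAC1, a mitochondrial carrier of oxaloacetate and isopropylmalate, read −0.97 and −0.72 against 0.26, 0.09 and −0.00, a difference of −0.95 ± 0.15 (adjusted p = 0.0347). Both were below 0 against wild type and at or above about 0 against the htb2 deletion. ILV5, of isoleucine and valine synthesis, had no value on array 3 and differed by −0.83 ± 0.14 (adjusted p = 0.0571). ILV3, ILV2 and the cytosolic aminotransferase gene BAT2 differed by −0.69, −0.69 and −0.72 without passing. The regulator gene LEU3 and the permease gene BAP3 differed by −0.04 and −0.06. LEU2 itself differed between the K123R channels of the 2 comparisons, and the part of LEU2 genotype in these genes was not tested. The reference channel levels of LEU1, BAT1 and OAC1 differed by −0.99, −0.92 and −0.44 between the htb2 deletion and wild type, and the K123R levels by 0.54, 0.24 and 0.51 between the same arrays. For OAC1 the K123R difference was the larger in size.

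Of 21 tested genes of methionine synthesis and sulfate assimilation, 3 passed as lower (MET6, MET17 and SAM2) and 0 as higher. Over all tested genes, 0.193% passed as lower and 0.439% as higher. In 14 of the 21 all wild-type arrays lay below the htb2 arrays (19.4% of all tested genes). The list's median was −0.41. MET17, the sulfhydrylase that makes homocysteine, read 0.59 and 0.50 over wild type and 1.73, 1.77 and 1.61 over the htb2 deletion. The ratio was positive on all 5 arrays and higher against the htb2 deletion, with a difference of −1.18 ± 0.12 (limma adjusted p = 0.00884). MET6, the methionine synthase, read −0.59 and −0.02 against values of 0.66 to 1.30, a difference of −1.23 ± 0.18 (adjusted p = 0.0292). SAM2, an S-adenosylmethionine synthetase, read −0.33 and −0.47 against 0.54, 0.37 and 0.54, a difference of −0.86 ± 0.12 (adjusted p = 0.0273). MET13, a methylenetetrahydrofolate reductase, and the second synthetase gene SAM1 differed by −0.60 ± 0.12 and −0.58 ± 0.13 without passing (adjusted p = 0.0741 and 0.101). The methionine permease genes MUP1 and MUP3 differed by 0.03 and 0.09.

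The remaining 4 genes that fell belong to neither list. DLD3, a cytosolic D-lactate dehydrogenase, read −0.56 and −0.45 over wild type and 0.61, 0.36 and 0.69 over the htb2 deletion, a difference of −1.01 ± 0.12 (limma adjusted p = 0.0156). ALD5, a mitochondrial aldehyde dehydrogenase, differed by −0.80 ± 0.13, the permease gene FCY21 by −0.80 ± 0.12 and CTF13, a kinetochore subunit, by −0.89 ± 0.14 (adjusted p = 0.0348 for each). For CTF13 and ALD5 the reference level was not lower in the htb2 deletion, at 0.40 and 0.06, while the K123R level was higher on the htb2 arrays by 1.30 and 0.86. Purine synthesis had 0 of 14 called by limma (6 at an unadjusted p under 0.05, beside 15.8% of all tested genes) and a median of −0.28. The list of phosphate starvation genes had 0 of 16 called (8 unadjusted) and a median of −0.28. CTF19, a kinetochore gene, was counted in this list and was among the 8, at −0.47. Both the count and the median thus include a gene from outside the group. The acid phosphatase genes PHO5 and PHO11 differed by −0.81 ± 0.18 and −0.79 ± 0.21 without passing (adjusted p = 0.1 and 0.152).

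**Figure D2:**
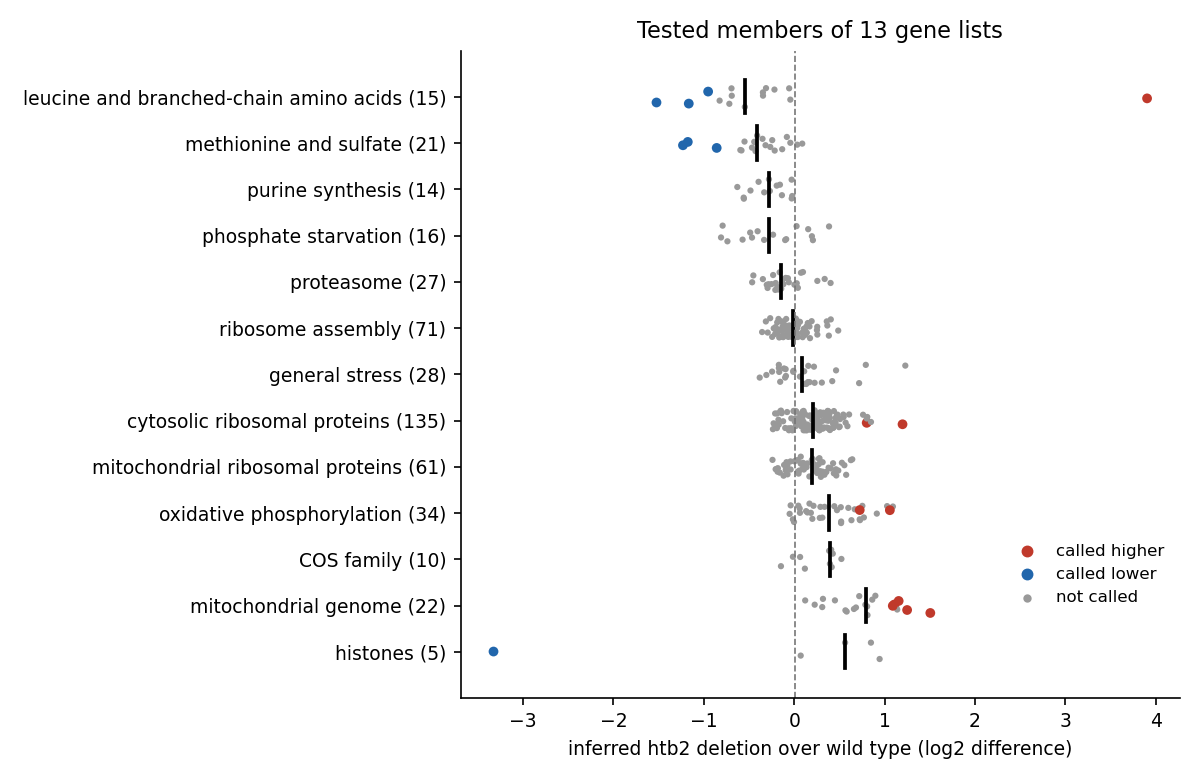
Inferred difference (log2) of each tested member of 13 gene lists, with the number tested in brackets; black bars are list medians and the dashed line is the median of all tested genes. The leucine and methionine lists lie left of the line, at medians of −0.55 and −0.41, and oxidative phosphorylation and the mitochondrial genome right of it, at 0.39 and 0.80.

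The list of genes encoded in the mitochondrial genome was drawn up after its values were seen. Of its 22 tested genes, 5 passed as higher (0.439% of all tested genes) and 0 as lower (0.193%). The median was 0.80. The 5 were COB, which encodes cytochrome b, COX3, of cytochrome oxidase, VAR1, a protein of the mitochondrial ribosome, AI1, an intron-encoded protein of COX1, and the homing endonuclease gene SCEI. COB read 0.52 and 0.41 over wild type and −0.94, −0.67 and −1.89 over the htb2 deletion, a difference of 1.51 ± 0.25 (limma adjusted p = 0.0381). VAR1 read 0.29 and −0.11 against −1.69, −0.51 and −1.93, a difference of 1.25 ± 0.16 (adjusted p = 0.0161). COX3 had no value on htb2 array 1, read 0.12 and −0.01 against −0.54 and −1.66, and differed by 1.16 ± 0.14 (adjusted p = 0.019). In 16 of the 22 the arrays against wild type all lay above the others (18.8% of all tested genes). The size depended on the dye: the median difference was 0.30 with K123R in Cy5 and 1.32 with K123R in Cy3.

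Channel signals of these transcripts differed between the comparisons by more than the inferred difference. COB read 2464 and 4425 intensity units in wild type and 56778, 18896 and 56799 in the htb2 deletion, but also 4464 and 4730 in K123R on the former arrays and 12412, 28248 and 9029 on the latter. VAR1 read 172 and 249 in wild type against 5584, 1438 and 5319 in the htb2 deletion. The median level of the 22 genes was higher on the htb2 arrays by 2.60 in the reference channel and by 1.82 in the K123R channel. Mitochondrial RNA was thus brighter in both strains on those arrays, and the part of this shift in the calls was not tested.

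Of 34 tested nuclear genes of oxidative phosphorylation, 2 passed as higher (ATP18 and ATP19) and 0 as lower. Over all tested genes, 0.439% passed as higher and 0.193% as lower. In 23 of the 34 all wild-type arrays lay above the htb2 arrays (18.8% of all tested genes), and the median was 0.39. ATP19, a small subunit of the ATP synthase, read −0.02 and 0.08 over wild type and −0.89, −0.88 and −1.46 over the htb2 deletion. That is a difference of 1.06 ± 0.18 (limma adjusted p = 0.0395). ATP18, another small subunit, differed by 0.72 ± 0.12 (adjusted p = 0.0431). QCR9 and QCR7, small subunits of complex III, differed by 1.09 ± 0.26 and 1.03 ± 0.20 without passing (adjusted p = 0.12 and 0.072). The large ATP synthase subunits ATP1 and ATP2 differed by −0.05 and −0.01.

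Ribosomal protein genes had smaller positive medians. Of 135 tested genes of cytosolic ribosomal proteins, 2 passed as higher (RPL7B and RPS14B, beside 0.439% of all tested genes), 0 as lower, and the median was 0.21. An unadjusted p under 0.05 was found for 29 (15.8% of all tested genes). The wild-type arrays lay all above the htb2 arrays in 31 (18.8% of all tested genes) and all below in 4 (19.4%). For this family 87 members had a saturated spot, and the 48 without one had a median of 0.28. RPL7B read 0.11 and 0.09 over wild type and −1.30, −1.04 and −1.01 over the htb2 deletion, a difference of 1.20 ± 0.14 (limma adjusted p = 0.0112). Its paralog RPL7A differed by 0.26 ± 0.12 (adjusted p = 0.335). RPS14B differed by 0.80 ± 0.12 (adjusted p = 0.0315) and its paralog RPS14A by 0.28 ± 0.14 (0.364). Cross-reading of one copy by the probe of the other was not tested. Mitochondrial ribosomal proteins had 0 of 61 called by limma (11 at an unadjusted p under 0.05, beside 15.8% of all tested genes) and a median of 0.19.

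The inferred difference followed coding length, taken as the annotated span with introns. Members tested had a median length of 465 bp for oxidative phosphorylation, 717 bp for mitochondrial and 771 bp for cytosolic ribosomal proteins. The median was 0.35 for the 119 tested genes under 300 bp, 0.19 from 300 to 599 bp, 0.05 from 600 to 1199 bp, −0.06 from 1200 to 2399 bp and −0.12 for the 800 genes of 2400 bp and over. The slope lay in the arrays against the htb2 deletion, where the median ratio went from −0.30 in the shortest class to 0.17 in the longest, while over wild type it ran from 0.01 to 0.06. Set against the median of each member's own length class, oxidative phosphorylation kept a median of 0.26, cytosolic ribosomal proteins 0.09 and mitochondrial ribosomal proteins 0.06. The leucine and methionine lists kept −0.48 and −0.32. A RefSeq length was known for 91.7% of the tested genes.

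**Figure D3:**
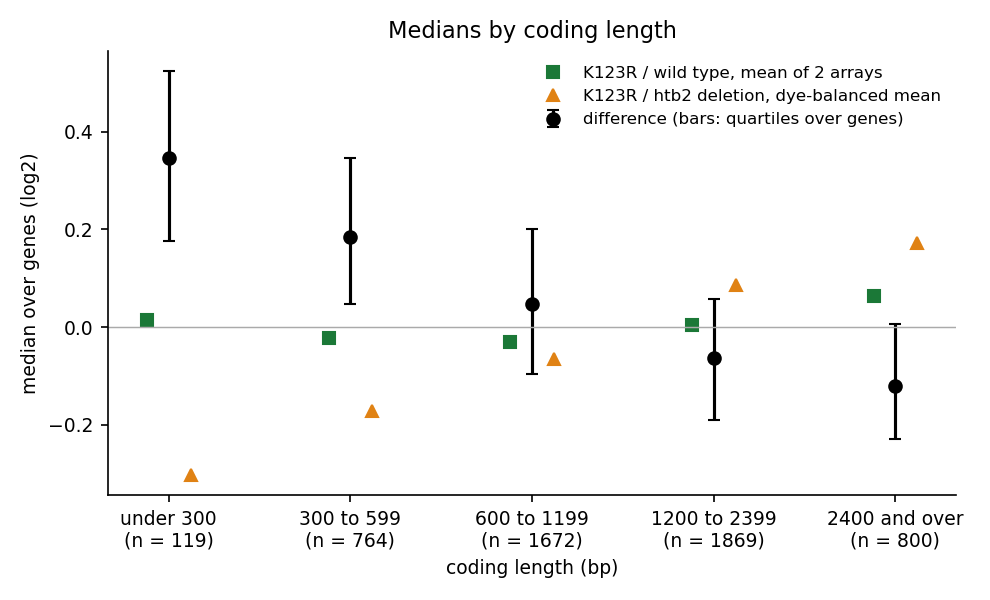
Median over genes of the inferred difference (black, bars from the lower to the upper quartile) and of the mean log2 ratios behind it, by coding length in bp. The difference falls from 0.35 to −0.12 with length, and the orange medians of K123R over htb2 deletion rise from −0.30 to 0.17.

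The remaining genes called higher lay outside these lists. KNH1, of cell wall glucan synthesis, read −0.04 and 0.06 over wild type and −1.02, −0.96 and −1.01 over the htb2 deletion. Its arrays lay close together within each comparison, and the difference was 1.00 ± 0.12 (limma adjusted p = 0.0156). GSC2, an alternative catalytic subunit of glucan synthase, read 0.89 and 0.77 against −0.16, 0.05 and −0.20, a difference of 0.90 ± 0.12 (adjusted p = 0.0208). MPC3, of the mitochondrial pyruvate carrier, was below 0 on all 5 arrays, at −0.65 and −1.01 against −1.88, −1.58 and −2.06. It differed by 0.95 ± 0.15 (adjusted p = 0.0348). RRT5 differed by 1.04 ± 0.15, PBI2, a vacuolar proteinase inhibitor, by 0.87 ± 0.13, DAD4, of the kinetochore DASH complex, by 0.88 ± 0.14, BLS1 by 0.80 ± 0.13 and the methyltransferase gene EFM3 by 0.74 ± 0.12. DAD4 had no value on htb2 array 1. PBI2 and DAD4, like ATP18 and ATP19, are under 300 bp long. That length class had a median of 0.35 and 4 of 119 tested genes called higher, beside 0.439% of all tested genes. The remaining 7 genes called higher have no RefSeq gene name: YMR013W-A, YBR032W, YGR182C, YGR035C, YGL188C, YOR338W and YJL188C (BUD19 on the array), with differences of 0.75 to 1.38.

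Of the general stress genes, 0 of 28 were called by limma (6 at an unadjusted p under 0.05, beside 15.8% of all tested genes) and the median was 0.09. The small heat-shock genes HSP12 and HSP26 differed by 1.23 ± 0.22 and 0.79 ± 0.30 without passing (limma adjusted p = 0.0571 and 0.27). Among regulators and chaperones of histones, 0 of 20 were called (2 unadjusted) and the median was −0.04. SPT10, an activator of histone genes, differed by −0.49 ± 0.13 (adjusted p = 0.166), HIR1, HIR2 and HIR3 of the repressing HIR complex by −0.17, −0.03 and −0.14, and the chaperone gene ASF1 by 0.20. Of the genes tied to H2B ubiquitylation, Paf1 complex members such as PAF1 and RTF1 among them, 0 of 11 tested were called (0 unadjusted). The median was −0.11. BRE1, the ligase, differed by −0.11 ± 0.13 and UBP8, the SAGA protease, by 0.02 ± 0.13 (adjusted p = 0.716 and 0.955).

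**Figure D4:**
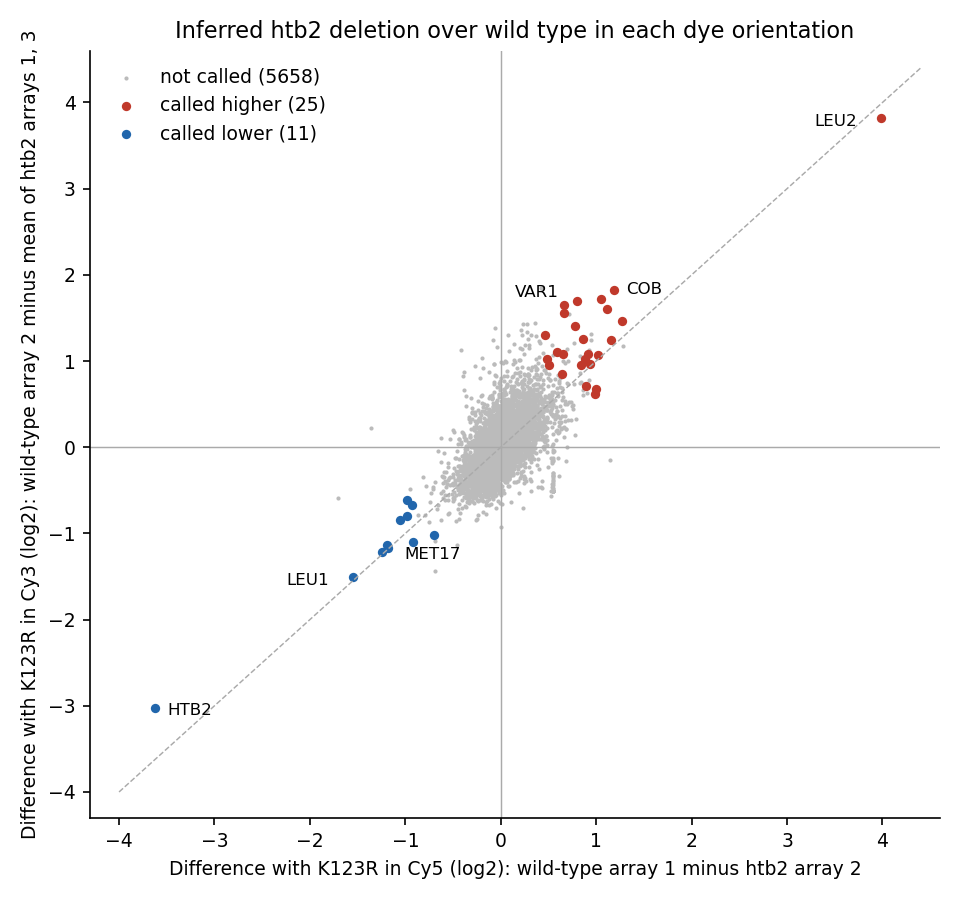
Inferred difference of each of the 5694 tested genes with K123R in Cy5 (horizontal, log2) and in Cy3 (vertical, log2), with the 25 genes called higher in red and the 11 called lower in blue; the dashed line marks equal values. LEU2, at 3.98 and 3.82, and HTB2, at −3.62 and −3.03, stand apart from the rest.

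Over all genes the inferred difference was small. It lay within 0.5 of 0 for 95.4% of tested genes, and its 5th and 95th percentiles were −0.34 and 0.45. A difference of at least 1 was measured for 18 genes upward and 8 downward. The arrays with K123R in Cy5 gave one reading of the difference and those with K123R in Cy3 another, and both had the same sign for 71.1% of tested genes. The spread over genes was 0.243 (SD) in Cy5 and 0.334 in Cy3.

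The ratios were also split into channel levels, as a description. The inferred difference is by construction the difference of the reference levels minus that of the K123R levels, so the split does not show which strain carried a call. Levels were made comparable across arrays by quantile normalisation of the mean log intensity, which cannot remove a difference between the array designs. In 31 of the 36 genes called, the level in the htb2 deletion differed from that in wild type in the direction of the inferred difference, beside 69.3% of all tested genes. In 29 it differed by more than the K123R level did between the comparisons, beside 58.9% of all tested genes, and the choice of genes with a large difference favours both counts. The exceptions in direction were CTF13, ALD5, ATP18, RPS14B and LEU2. For HTB2 the reference level was lower by −5.65 and the K123R level by −2.32. KNH1 was higher by 1.32 in the htb2 deletion than in wild type while its K123R level differed by 0.32, and MET17 differed by −1.15 in the references and by 0.02 in K123R.

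**Figure D5:**
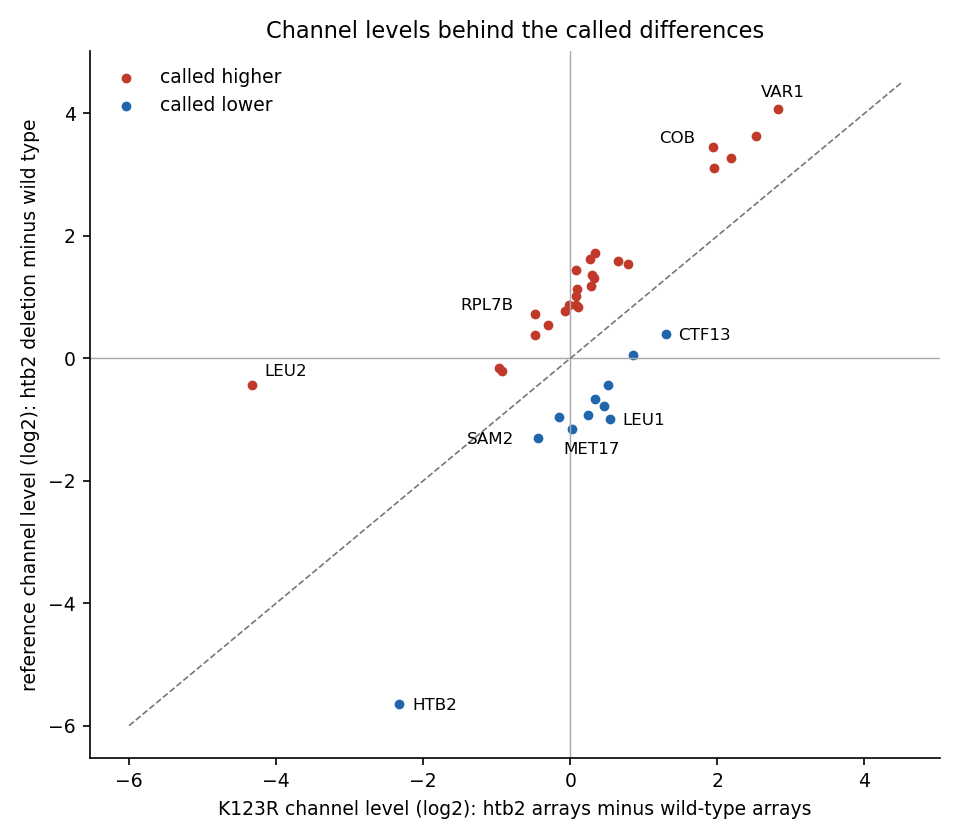
Difference in channel level (log2) between the htb2 arrays and the wild-type arrays for the 36 genes called, in the K123R channel (horizontal) and in the reference channel (vertical); the inferred difference is the height above or below the dashed line. LEU2 lies far to the left, at −4.33 in K123R and −0.43 in the references, and mitochondrial genes such as VAR1 lie at the upper right, at 2.82 and 4.07.

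The number of calls rested on the arrays and on how the dye was treated. Without array 1 or array 2 against wild type 2 genes passed in each case, and without array 1, 2 or 3 against the htb2 deletion 474, 249 and 92 passed. The 3 fits without an htb2 array are unlike the main fit. Without array 1 or 3 the htb2 arrays add no residual spread, and without array 2 they are all in Cy3. With 2 residual degrees of freedom in the main fit, the standard errors lean on the spread shared over all genes. HTB2 and LEU2 passed in all 21 other settings tried, and all 36 called genes kept their sign in each setting that gave a value. Among the 21, the setting limited to probes of the same name repeated the main fit, since all 6256 probes share a name. KNH1, LEU1, MET17, YBR032W and YMR013W-A passed in 17 of the 21.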

How the data were processed

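Arrays were scanned and quantified by the authors with Agilent Feature Extraction A.7.5.1 (K123R against wild type) and 8.5.1.1 (K123R against the htb2 deletion), per the file headers. The deposited scanner files give each spot's mean and background intensity in both colours. The deposited value table holds log10 ratios of mutant over reference, which differed from ratios recomputed from the scanner files' dye-normalised columns by at most 5e-10. These deposited log10 values were used as an alternative. Depth has no meaning for arrays, and the number of arrays limits the precision.

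Mean intensities were corrected with normexp (offset 50) and normalised by loess within each array in R 4.3.3 with limma 3.58.1. Control spots and spots marked as outliers were left out, saturated spots were kept, and spots of a probe were averaged. Log2 ratios computed from the deposited intensities were turned to K123R over reference. A gene was tested with values in both dye orientations of each comparison and a probe well above background on at least 1 of the 2 and 2 of the 3 arrays. The limma model had a mean per comparison and a dye term for the 3 htb2 arrays, whose dyes do not balance. For 385 genes 1 array lacked a value. The p-values are two-sided and adjusted over all 5694 genes.

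The genes and lists were chosen with earlier results of these data known, and the mitochondrial genome list after its values were seen. Named genes are HTB1, HTB2, HTA1, HTA2, the genes beside HTB2, marker and mating-type genes, the 12 highest and 12 lowest called genes with a gene name and non-overlapping arrays (the next by p where fewer pass), and up to 4 members of lists with at least 3 calls. Other genes named as list members were chosen after their values were seen. Of the array's gene names, 5756 matched RefSeq assembly R64, used for symbols, gene order and length. Replicate numbers pair arrays of opposite dye, so no block entered the model.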

Additional observations from a re-analysis of the deposited data

How the results depend on the processing

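Compared with 36 genes called, 12 passed with Agilent's processed signals, 12 with the deposited values, 18 with median centring in place of loess, 15 with one dye term shared by the 5 arrays, 9 with no dye term and 2 with a dye term for each comparison, while 64 passed with all 9 arrays in one fit and 64 with an intensity trend. With 1 array left out the count ran from 2 to 474. Same-numbered arrays have opposite dyes, and their deviations from the comparison means correlated at −0.42 and −0.58 across genes. Number and dye change together, so these correlations cannot show whether same-numbered arrays were paired. With the replicate block, 2 genes passed. The setting limited to probes of the same name in both designs repeated the main fit, with the same 36 genes. Slide could not be fitted as a random block, since 1 of the 4 slides held more than 1 array. HTB2 ranged from −3.42 to −2.33, the latter with quantile normalisation between arrays, and LEU2 from 3.48 to 4.69, the latter with processed signals or deposited values. Apart from 18 sign changes, listed next, the 43 tested named genes kept their direction in the 899 values from 21 settings, with 163 values no longer past the threshold and 16 newly past it. LYS2 read 0.09 with median centring. With single arrays left out, HIS3 ran from −1.16 to 0.24, UTP20 from −0.21 to 0.05, STE2 from −0.04 to 0.17, BAR1 from −0.07 to 0.27, MFA2 from −0.08 to 0.26 and STE3 from −0.14 to 0.12. UTP20 also read 0.02 with quantile normalisation and 0.05 with the replicate block. STE3 also read 0.02 with processed signals, deposited values or a shared dye term, 0.01 with median centring, 0.03 with no dye term and 0.05 with the replicate block. Of 756 list medians, 20 moved by more than the spread between arrays. The causes were not tested. Of the tested genes, 116 were saturated on all 5 arrays, where ratios are only bounds.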

Other observations

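Among gene groups not described above, the COS family, found near chromosome ends, had a median difference of 0.39 with 0 of 10 members called by limma (6 at an unadjusted p under 0.05, a level that 15.8% of all tested genes passed, to be read beside each such count here). The glucose transporter and glucose-response genes had a median of 0.21 with 0 of 19 called (7 unadjusted), and the transporter gene HXT4 differed by 1.13 ± 0.22 (limma adjusted p = 0.0695). Proteasome genes had a median of −0.14 (0 of 27 called, 6 unadjusted) and genes of G2 and mitosis −0.17 (0 of 18 called, 2 unadjusted), with the mitotic cyclin gene CLB2 at −0.45 ± 0.17 (adjusted p = 0.276). SNO1, of vitamin B6 synthesis, differed by −1.15 ± 0.27 (adjusted p = 0.12), and the chaperone gene SSA2 by −0.67 ± 0.16 (0.125). HIS4, of histidine synthesis, differed by −0.65 ± 0.15 (adjusted p = 0.108) and LYS20, of lysine synthesis, by −0.59 ± 0.17 (0.183). Ribosome assembly genes, 71 tested with 0 called and 5 unadjusted, had a median of −0.02.

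Of the 36 lists, glycolytic genes had the widest gap between the dye orientations. They had 0 of 17 called (3 unadjusted). Their median difference was 0.54 with K123R in Cy5 and −0.51 with K123R in Cy3, and 14 of the 17 tested had a saturated spot. The 3 without one had a median of −0.51. PFK2 and PFK1, the subunits of phosphofructokinase, differed by −0.62 ± 0.15 and −0.51 ± 0.15 without passing (limma adjusted p = 0.12 and 0.19).

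Position along the genome made little difference among nuclear genes. The median over each nuclear chromosome lay between −0.03 and 0.05, and the outermost 10 genes of each chromosome arm had a median of 0.02 over the 296 tested. Gene names of the array that RefSeq R64 does not hold had a median of 0.10 over 470 genes. Of these, 4 were called higher and 0 lower, beside 0.439% and 0.193% of all tested genes.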
